A study of Mus musculus with 2 samples.

Results

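Mir183, Mir96 and Mir182 are 3 neighbouring microRNA genes on mouse chromosome 6 that are transcribed together as 1 precursor RNA. They were described in small RNA (under 30 bases) sequenced from skeletal muscle of mice of strain B6NCrl at postnatal day 0. The study has 2 libraries, replicate 1 and replicate 2, each from a tissue piece of 1 pup, with no treatment and no control group. Both carry the same donor record, so whether they come from 2 pups is not known, and sex was not collected. The 3 genes were selected on their levels and on their difference between these libraries, out of 1973 microRNA genes in the tables. Those levels and ratios are therefore given as a description, with counting intervals and no test.

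A microRNA gene makes a hairpin RNA, which is cut into short mature strands. A mature strand binds messenger RNAs mainly through its seed, the bases 2 to 8 from its 5′ end, and lowers their output. The cluster is known for sensory cells: it is strongly expressed in photoreceptors, in hair cells of the inner ear and in sensory ganglia. Seed mutations of miR-96 cause hearing loss in mice and humans. In rodent muscle, miR-182 has been studied as a regulator of FoxO3, a transcription factor of the muscle atrophy programme.

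The cluster lies on the minus strand of chromosome 6 (GRCm38, the assembly also called mm10). Transcription runs from Mir183 at 30169668 to 30169737 through Mir96 at 30169446 to 30169551 to Mir182 at 30165918 to 30165992. Mir183 and Mir96 stand 116 bases apart, and 3453 bases separate Mir96 from Mir182. No other annotated gene overlaps the whole span of 3820 bases, so all 3 hairpins are intergenic in GENCODE M21. The nearest genes are Rncr4, a retinal noncoding RNA on the opposite strand 3155 bases beyond Mir183, and Nrf1, the gene of a transcription factor of mitochondrial genes, 12459 bases beyond Mir182.

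The mature strands are shown because the seeds set which messenger RNAs each microRNA can bind, and because the 5p strands resemble each other (RefSeq, GRCm38.p6, 5′ to 3′, seed in capitals).
miR-183-5p: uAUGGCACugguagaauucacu
miR-96-5p: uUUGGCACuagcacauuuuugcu
miR-182-5p: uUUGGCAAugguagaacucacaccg
miR-183-3p: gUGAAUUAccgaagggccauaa
miR-96-3p: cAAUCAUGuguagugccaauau
miR-182-3p: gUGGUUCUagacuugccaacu

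No 2 members have the same 5p seed. The seeds of miR-182-5p and miR-96-5p match at 6 positions, as do those of miR-96-5p and miR-183-5p. The seeds of miR-182-5p and miR-183-5p match at 5. Over the first 22 bases, miR-182-5p and miR-183-5p match at 18 positions and differ by U2A, A8C, C17U and A22U (miR-182 base first, positions from the 5′ end). MiR-96-5p matches miR-183-5p at 13 of 22 positions and miR-182-5p at 12 of 23. Among other mouse genes in the RefSeq table, the 5p seed of miR-96 recurs in Gm24195, which had 0 counts in both libraries. The seeds of miR-182-5p and miR-183-5p recur in none. The 3p seed of miR-96 recurs in Mir3475, which had 42 counts in replicate 1 and 99 in replicate 2.

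The hairpins are shown because the deposited counts are per hairpin gene and do not tell the arms apart (RefSeq, GRCm38.p6, 5′ to 3′, both mature strands in capitals).
Mir183: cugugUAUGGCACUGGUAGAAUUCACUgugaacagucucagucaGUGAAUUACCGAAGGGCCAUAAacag
Mir96: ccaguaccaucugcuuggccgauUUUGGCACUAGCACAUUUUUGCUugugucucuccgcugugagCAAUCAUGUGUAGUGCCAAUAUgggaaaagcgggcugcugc
Mir182: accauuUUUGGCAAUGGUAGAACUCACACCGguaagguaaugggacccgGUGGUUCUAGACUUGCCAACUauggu

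The longest stretch that a member's hairpin has in common with any other hairpin of the tables, the other 2 members included, is 11 bases for Mir96 and 10 bases for Mir183 and Mir182. None reaches the 20 bases used to mark genes whose reads may fit several places. The authors set reads that fit more than 1 place apart before counting, and 70 of the 365 genes that reached 10 counts in each library (called detected here) share such a stretch. Copies elsewhere in the genome were not searched.

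Replicate 1 held 7955914 counts on the annotated strand of microRNA genes and replicate 2 held 10816295. Levels are in CPM, counts per 1000000 of that total. On this scale 3 counts, about the 1-sided 95% upper limit for a count of 0, equal 0.377 CPM in replicate 1 and 0.277 CPM in replicate 2. Intervals are exact 95% intervals and cover counting error only. The muscle label was checked on Mir206, a skeletal muscle microRNA, which was the most abundant gene with 107144 and 120690 CPM in replicates 1 and 2. The 7 muscle genes found in the tables summed to 109278 and 122731 CPM, most of it Mir206, and none was at 0. Mir133b (841 and 823 CPM), Mir208b (732 and 763 CPM) and Mir499 (545 and 442 CPM) came next. Mir1a-1 (10.1 and 6.47 CPM) and Mir133a-1 (5.91 and 5.55 CPM) were low. Mir133a-2, with 7 and 16 counts, was not detected, and Mir1a-2 was not found. Mir133b and the 2 Mir133a genes each share a stretch of 20 bases or more with another gene, so part of their reads may have been set apart. Mir1a-1 could not be compared with Mir1a-2, so whether its reads were set apart is not known. Its low counts therefore do not show that miR-1 was low.

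All 3 cluster genes were detected in both libraries at modest levels and were higher in replicate 1. Mir182, the last hairpin of the precursor, had 1118 counts in replicate 1 and 345 in replicate 2, which is 141 CPM (132 to 149) and 31.9 CPM (28.6 to 35.4). Mir183, the first hairpin, had 618 and 447 counts, or 77.7 CPM (71.7 to 84.1) in replicate 1 and 41.3 CPM (37.6 to 45.3) in replicate 2. Mir96, the middle hairpin, had 345 and 129 counts, or 43.4 CPM (38.9 to 48.2) and 11.9 CPM (9.96 to 14.2). The intervals of the 2 libraries overlap for none of the 3 genes, which was also so for 215 of the 365 detected genes (58.9%), so this is common at such counts. The opposite strand held 1 count at Mir183 in replicate 1, 1 at Mir182 in replicate 2 and 0 elsewhere, so nearly every read at these hairpins lay on their own strand.

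**Figure D1:**
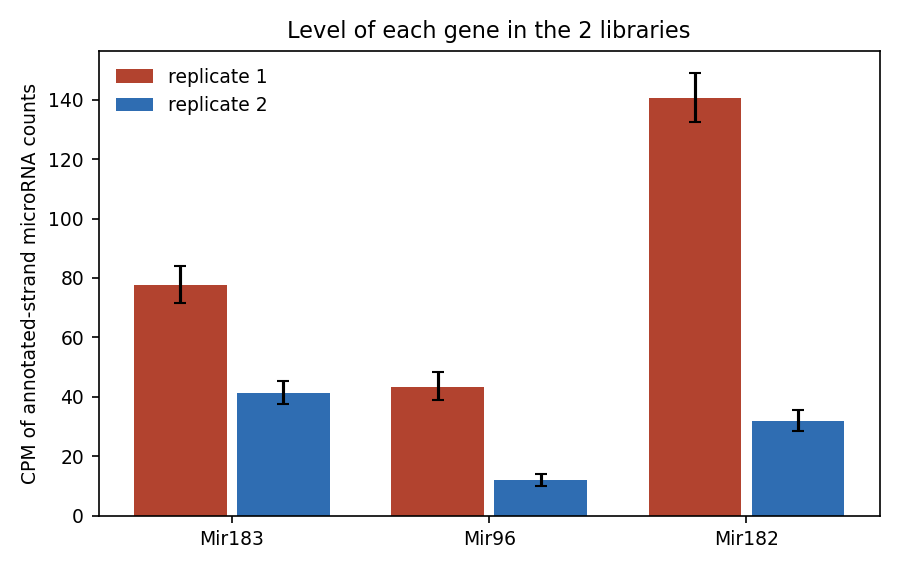
Bars give the level of Mir183, Mir96 and Mir182 in replicate 1 (red) and replicate 2 (blue), in counts per 1000000 annotated-strand microRNA counts, with exact 95% counting intervals. Mir182 is the tallest bar in replicate 1 at 141 CPM, while Mir183 is the tallest in replicate 2 at 41.3 CPM.

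Averaged over both libraries, Mir182 had 86.2 CPM ± 76.8, Mir183 59.5 CPM ± 25.7 and Mir96 27.6 CPM ± 22.2 (SD, n = 2). Most of this spread is the difference between the libraries, and in each of them Mir96 was the lowest of the 3, while Mir182 and Mir183 changed places. In the order of mean CPM among the 365 detected genes, they took ranks 184, 196 and 228, near the middle. Mir182 stood between Mir199a-2 (87.0 ± 42.5) and Mirlet7a-2 (84.0 ± 25.0), and Mir183 between Mir5099 (65.9 ± 8.56) and Mir758 (59.1 ± 0.595). Mir96 stood between Mir106a (28.1 ± 28.04) and Mir181a-2 (27.6 ± 7.54). Each of these neighbours lies within the spread of the member beside it. In single libraries the ranks among all 1973 genes were 164 and 212 for Mir182, 191 and 202 for Mir183, and 215 and 248 for Mir96, in replicates 1 and 2.

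The 3 genes together had 2081 counts in replicate 1 and 921 in replicate 2, or 262 CPM (250 to 273) and 85.1 CPM (79.7 to 90.8). This was 0.0262% of the annotated-strand microRNA counts of replicate 1 and 0.00851% of those of replicate 2. As bulk tissue was sequenced, a larger share of cells that express the cluster and more RNA per cell cannot be told apart.

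The make-up of the cluster also differed between the libraries, a comparison within each library that no scaling between them can move. Mir182 supplied 53.7% (51.6 to 55.9) of the cluster's counts in replicate 1 and 37.5% (34.3 to 40.7) in replicate 2. Mir183 supplied 29.7% (27.7 to 31.7) in replicate 1 and 48.5% (45.3 to 51.8) in replicate 2. For Mir96 the shares were 16.6% (15.0 to 18.2) and 14.01% (11.8 to 16.4), whose intervals overlap. The order of the 2 most abundant members was thus reversed, with Mir182 first in replicate 1 and Mir183 first in replicate 2.

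**Figure D2:**
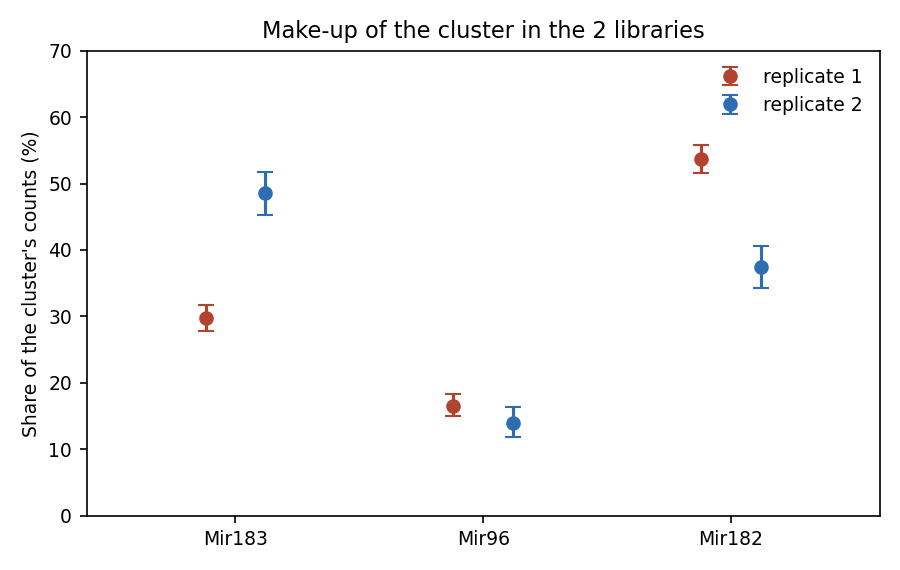
Points give each gene's share of the summed counts of Mir183, Mir96 and Mir182, in percent, in replicate 1 (red) and replicate 2 (blue), with exact 95% binomial intervals. Mir182 holds 53.7% in replicate 1 and 37.5% in replicate 2, while the share of Mir96 lies at 16.6% and 14.01%.

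Set against each other, Mir182 had 1.81 counts per count of Mir183 in replicate 1 (1.64 to 2.00) and 0.772 in replicate 2 (0.669 to 0.890), so the ratio of the pair was 2.34 times as high in replicate 1 (1.97 to 2.79). Mir96 had 0.558 counts per count of Mir183 in replicate 1 and 0.289 in replicate 2, which differ 1.93-fold (1.52 to 2.47). Mir182 and Mir96 kept closer to each other. Mir182 had 3.24 counts per count of Mir96 in replicate 1 and 2.67 in replicate 2, and the interval of this 1.21-fold difference runs from 0.949 to 1.54. Counts of different hairpins also depend on how well each mature strand is captured in library making, so a ratio between 2 genes is less certain as an amount of RNA than its change between libraries.

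Between the libraries, ratios were taken as replicate 1 over replicate 2 after trimmed-mean (TMM) scaling of the library totals. Mir182 had a log2 ratio of 1.89 (1.72 to 2.07), a 3.72-fold difference, and Mir96 one of 1.62 (1.32 to 1.92), a 3.07-fold difference. Mir183 had a log2 ratio of 0.67 (0.49 to 0.84), or 1.59-fold, and the summed cluster 1.37 (1.26 to 1.49), or 2.59-fold. Of the 3 genes, 2 were at least 2-fold higher in replicate 1, where 26 of all 365 detected genes (7.12%) were, the 2 among them. Counting both directions, 30 genes (8.22%) were at least 2-fold apart, 26 higher in replicate 1 and 4 higher in replicate 2. Under unscaled library totals the split was 41 and 1, and the same 2 cluster genes remained the ones past 2-fold. The median log2 ratio of the detected genes was 0.01. The cluster was chosen with this difference known, so nothing is read from the share of its genes past 2-fold.

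**Figure D3:**
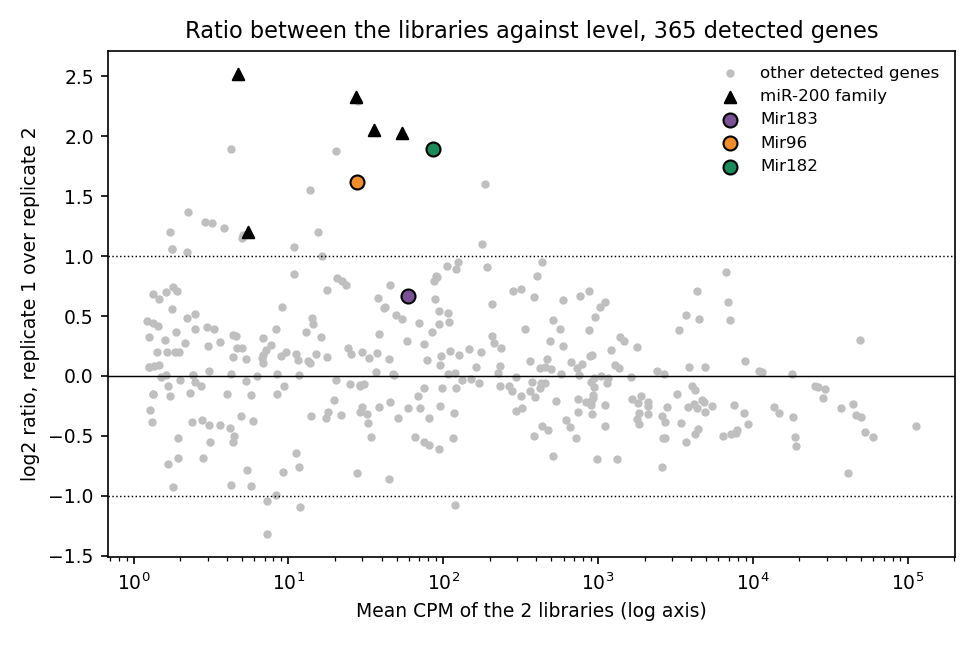
Each point is a detected microRNA gene, with its mean level over both libraries in CPM on a log axis and its log2 ratio of replicate 1 over replicate 2 after TMM scaling. Dotted lines mark 2-fold. Mir182 (1.89) and Mir96 (1.62) lie above the upper line among the miR-200 family genes (triangles), and Mir183 (0.67) lies below it.

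By size of the ratio towards replicate 1, Mir182 stood at place 6 of 365, Mir96 at 9 and Mir183 at 52. Above 10 CPM on average, the 5 genes nearest in ratio to the summed cluster were Mir138-1 (1.55), Mir103-2 (1.20), Mir181b-2 (1.60), Mir16-2 (1.10) and Mir218-2 (1.07). Likeness here is the distance between 2 log2 ratios, each from 2 libraries. All 5 share a stretch of 20 bases or more with a copy of their own, unlike the cluster genes, so part of their reads may have been set apart. Of the 26 genes at least 2-fold higher in replicate 1, 10 (38.5%) share such a stretch, against 70 of all 365 detected genes (19.2%), and of the 4 higher in replicate 2, 0 do.

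Because sensory cells, nerve and epithelium could all lie in a piece of muscle, lists of microRNAs typical of other cell types were set beside the cluster. The epithelial miR-200 family was higher in replicate 1 too. Its 5 genes summed to 213 CPM in replicate 1 and 42.8 CPM in replicate 2, a log2 ratio of 2.07 (1.92 to 2.22), none was at 0, and all 5 were at least 2-fold higher in replicate 1. Mir429 had 90.4 and 18.7 CPM (log2 ratio 2.03), Mir200c 59.6 and 12.1 CPM (2.05), and Mir200b 46.6 and 7.86 CPM (2.32). Mir200a, with 65 and 13 counts, had a log2 ratio of 2.52, and Mir141, with 64 and 32 counts, one of 1.20 (0.56 to 1.86). The cluster had 1.23 counts per miR-200 count in replicate 1 and 1.99 in replicate 2, a log2 difference of -0.69 (-0.88 to -0.51). The summed miR-200 family thus differed more between the libraries than the summed cluster did. Taken singly, Mir182 (1.89) and Mir96 (1.62) lay between Mir141 and Mir200a, the lowest and highest of the family, and Mir183 (0.67) lay below them. Ratios like those of the miR-200 genes were not particular to this family. Mir106a (2.30), Mir20b (1.87) and Mir181b-1 (1.89, from 55 and 17 counts) lay in the same range. The part of epithelial RNA in the cluster's difference was not tested.

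The keratinocyte microRNAs Mir203 and Mir205 had like levels in both libraries. Mir203 had 292 CPM in replicate 1 and 268 CPM in replicate 2, and Mir205 had 26.4 and 23.3 CPM. Their log2 ratios were -0.12 and -0.07, with a median of -0.09 that turned to 0.15 under library totals. The cluster had 0.822 counts per count of these genes in replicate 1 and 0.292 in replicate 2, a log2 difference of 1.49 (1.36 to 1.63). Among gut epithelial genes, 2 of 4 were detected, Mir192 with a log2 ratio of -0.35 and Mir194-2 with 0.19, and the list summed to 79.7 and 77.4 CPM. Mir194-2 shares a stretch of 20 bases or more with a copy, so part of its reads may have been set apart.

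Of the nervous system, 17 genes of a list of 18 were in the tables and 12 were detected, with summed levels of 1142 CPM in replicate 1 and 1070 CPM in replicate 2. Mir128-1 (485 and 427 CPM), Mir128-2 (354 and 423 CPM) and Mir132 (127 and 115 CPM) led the list, with log2 ratios of -0.06, -0.50 and -0.10. The median log2 ratio of the 12 was 0.24. At least 2-fold higher in replicate 1 were 3 of them, Mir138-1 (21.5 and 6.19 CPM), Mir138-2 (23.3 and 9.80 CPM) and Mir218-2 (15.5 and 6.19 CPM), against 2 with DESeq2 size factors. These 3 genes, Mir128-1 and Mir128-2 each share a stretch of 20 bases or more with a copy, so part of their reads may have been set apart. Mir124a-1, Mir124a-2 and Mir124a-3, the genes of the most typical neuronal microRNA, had 0 counts in both libraries. Each has 32 bases in a row in common with another of the 3, so their reads could fit several places and be set apart. Counts of 0 therefore do not show that miR-124 was lacking.

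MicroRNAs of retinal and hormone-secreting cells were set beside the cluster as well. Mir204 and Mir211, typical of retina and pigment epithelium, had 202 and 148 CPM and 3.52 and 2.50 CPM in replicates 1 and 2, with log2 ratios of 0.20 and 0.25. Of 4 neuroendocrine genes, 3 were detected. Mir375 had 17.7 CPM in replicate 1 and 18.4 CPM in replicate 2, Mir7-1 30.5 and 27.4 CPM, and Mir7b 4.65 and 3.88 CPM, with log2 ratios of -0.30, -0.09 and 0.01. None of these reached 2-fold. Mir7-1 shares a stretch of 20 bases or more with a copy, so part of its reads may have been set apart. The summed cluster differed from the neuroendocrine list by 1.51 (1.30 to 1.73) and from the retina list by 1.17 (1.02 to 1.32) on the log2 scale.

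Blood genes were mixed. The erythroid genes Mir451a (548 and 260 CPM) and Mir144 (34.6 and 25.3 CPM) had log2 ratios of 0.83 and 0.20, and Mir451a passed 2-fold under library totals. The 4 detected leukocyte genes had a median log2 ratio of 0.34. The myeloid Mir223, the most abundant of them with 528 and 403 CPM, had a ratio of 0.14, the lymphocyte gene Mir150 one of -0.21 and Mir146 one of 0.54. Mir146 shares a stretch of 20 bases or more with another gene, so part of its reads may have been set apart. Mir155 had a ratio of 0.76 and also passed 2-fold under library totals. Endothelial Mir126a stood at -0.32, and the 6 detected muscle genes had a median of -0.18, which turned to 0.06 under library totals. None of the 6 was 2-fold apart. TMM moved each log2 ratio by -0.25 relative to library totals, so ratios between -0.25 and 0 are above 0 under totals.

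**Figure D4:**
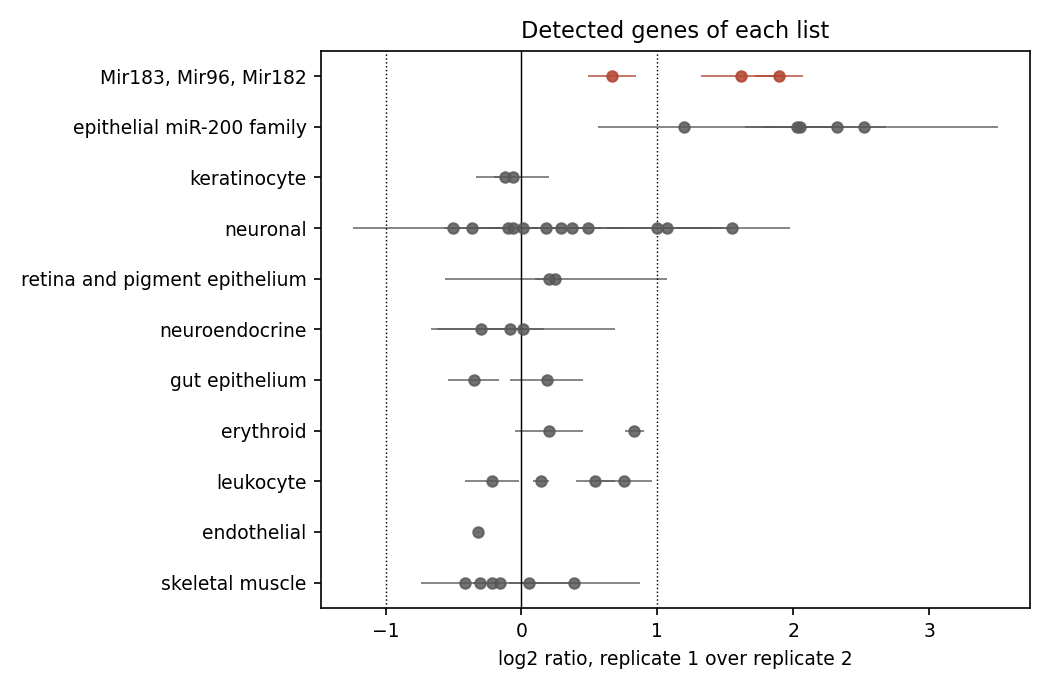
Each row is a list of microRNA genes, and each point a detected gene with its log2 ratio of replicate 1 over replicate 2 after TMM scaling and its exact 95% counting interval. Dotted lines mark 2-fold. Cluster genes (red) and miR-200 family genes lie to the right of 0, from 0.67 to 1.89 and from 1.20 to 2.52, while the keratinocyte genes lie at -0.12 and -0.07.

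To see how far genes cut from 1 precursor kept to 1 ratio between the libraries, the spread within the cluster was set beside that of 10 other groups of neighbouring microRNAs known to be transcribed together. The log2 ratios of the cluster spanned 1.23, from Mir183 to Mir182. The spans of the 10 groups ran from 0.05 to 1.30. Of these 10, only the group of Mir17 to Mir92-1, with 6 genes, spanned more than the cluster. Its highest point, Mir19b-1 (1.29), rests on 34 and 16 counts. Both Mir19b-1 and the lowest point of that group, Mir92-1, share a stretch of 20 bases or more with a copy. Mir23a, Mir27a, Mir23b, Mir27b and Mir199a-2, in groups that spanned less than the cluster, also share such a stretch with another gene. Of the 3 groups with 3 detected genes, Mir200b with Mir200a and Mir429 spanned 0.49, Mir106b with Mir93 and Mir25 0.59, and Mir23a with Mir27a and Mir24-2 0.29. Groups outside the 10 were not measured as a set, and some neighbouring genes there lay further apart than Mir183 and Mir182. Mir181a-2 and Mir181b-2 had log2 ratios of -0.81 and 1.60, and Mir181a-1 and Mir181b-1 of -0.52 and 1.89. Mir92-2 and Mir106a had 0.19 and 2.30. Both Mir181b genes and Mir92-2 share a stretch with a copy. For the Mir181a genes this is not given here, so their ratios may carry the same limit. A span widens with the number of genes and with low counts, so these spans are a description.

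**Figure D5:**
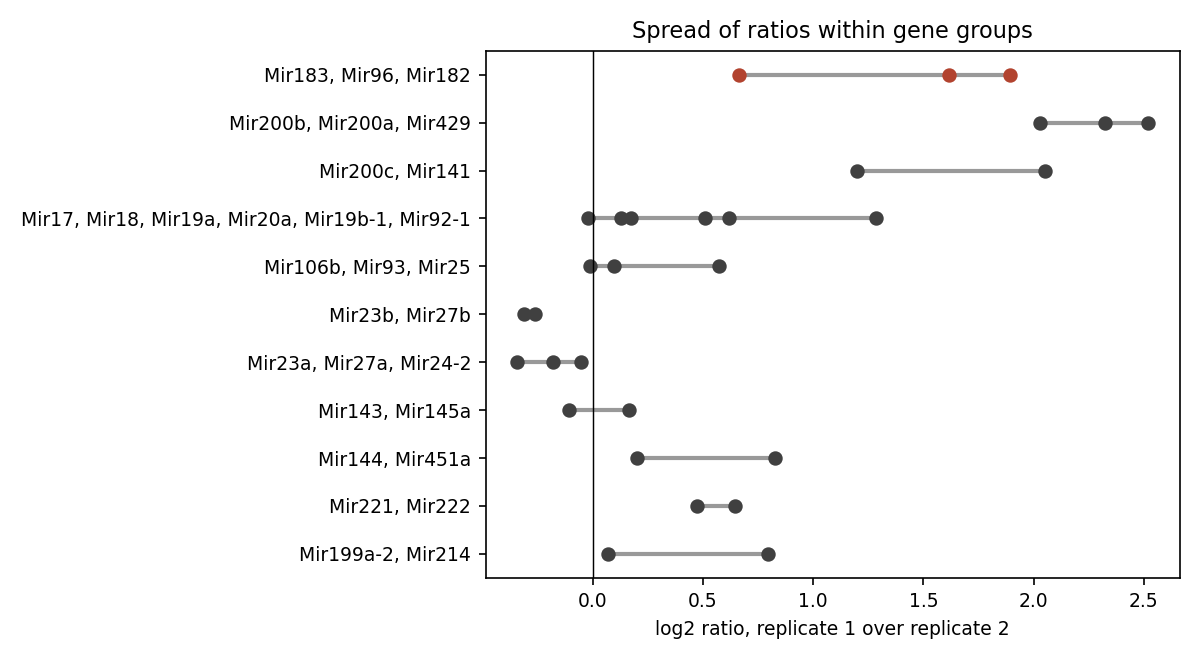
Each row is a group of microRNA genes transcribed together, and each point a detected gene with its log2 ratio of replicate 1 over replicate 2 after TMM scaling, joined by a line from the lowest to the highest. The cluster (red) spans 1.23, and the 10 other groups shown span 0.05 to 1.30.

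Of the 1894 genes matched to GENCODE M21, 7 others on chromosome 6 lie within 2 Mb of the cluster. Genes without a match had no position and could not be placed. The 3 detected ones of the 7 had log2 ratios from -0.36 to 0.30. Mir335, in the imprinted gene Mest at 572 kb from the cluster, had 58089 CPM in replicate 1 and 39909 CPM in replicate 2, a log2 ratio of 0.30. Mir29a, at 893 kb, had 181 and 145 CPM (0.07), and Mir129-1, at 1143 kb, had 21 and 31 counts (-0.36). Mir29b-1 had 15 counts in replicate 1 and 4 in replicate 2, below the limit for detection. Both Mir129-1 and Mir29b-1 share a stretch with a copy. Gm24303, Gm26220 and Gm23049 had 0 counts in both libraries.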

How the data were processed

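Small RNA of 2 muscle libraries of 1 group was analysed. The authors deposited whole-number counts per microRNA gene for each library, aligned to mm10 with GENCODE M4 per the readme text beside the tables. The aligner is not given in the sources used here, nor is the counter. Which column is the annotated strand was inferred: it is the strand column with most of the counts. The 4 rows that name no gene stayed out of totals. Reads that fit more than 1 place (28.01% and 26.9% of reads) were set apart in the deposited counts. Gene IDs were matched without version to GENCODE M21 (1894 of 1973), and sequences of all 3 members came from RefSeq.

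Detected means at least 10 counts in both libraries. Ratios used edgeR 4.0.16 TMM factors (1.09 and 0.918) in R 4.3.3, which moved log2 ratios by -0.25 against library totals. Intervals were exact binomial or Poisson (scipy 1.17.1). Differences between ratios were taken directly from the counts, with intervals from the conditional odds ratio. Ratios and intervals were run on simulated counts that held counting noise only. That run therefore says nothing about other variation between libraries. With 1 group of 2 libraries, no test between groups was made. Named genes were the members, the listed genes (a list of over 7 detected genes by its 3 highest), the 5 nearest in ratio, neighbours in level and within 2 Mb, and genes with a member's seed. The neuronal genes at least 2-fold apart or at 0 were named after their values were seen. So were the ratios of Mir106a, Mir20b, Mir92-2 and the Mir181 genes set beside the cluster or the miR-200 family. Members and lists were chosen with earlier results of these data known.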

Additional observations from a re-analysis of the deposited data

How the results depend on the processing

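The alternatives were library totals, DESeq2 1.42.0 size factors, count minimums of 1 and 50, no filter on low counts, unstranded counts, reads of the whole table as the total, and each replicate left out. Under each scaling and filter, Mir182, Mir96 and the summed cluster stayed at least 2-fold higher in replicate 1, and Mir183 stayed higher by less than 2-fold. With library totals the log2 ratios were 0.91 for Mir183, 2.14 for Mir182 and 1.62 for the cluster, by the construction of the scaling. Genes at least 2-fold apart numbered 30, but 115 with a count minimum of 1, 124 with no filter and 15 with a minimum of 50, as the genes counted changed from 365 to 591, 718 and 278. With all reads of the table as the total, the means were 29.5 for Mir183, 13.6 for Mir96, 42.3 for Mir182 and 85.3 for the sum, against 59.5, 27.6, 86.2 and 173 CPM, since that total is larger. Without replicate 1 the summed cluster had 85.1 CPM and without replicate 2 262 CPM. No paired analysis was possible because the libraries form 1 group. With 2 libraries that share a donor record, the ratios hold no estimate of the spread between animals, and Mir96 in replicate 2 rests on 129 counts.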
